A study of Mus musculus with 26 samples.

Results

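A set of 9 genes that steer the balance between glucose production and glucose breakdown in the liver were followed across 26 liver libraries of Eu-MYC mice. They were taken by name from the deposited table of raw counts, where they are 9 of 36883 gene names and each has 1 line. In the grouping used here 5 are fed-type, tied to glucose uptake and breakdown after feeding (Gckr, Slc2a2, Pklr, Pfkfb1 and Pfkfb3), and 4 are fasted-type, tied to glucose production and sparing in fasting (Pck1, Fbp1, G6pc and Pdk4). Gckr is placed by its link to glucokinase, although its protein holds that enzyme inactive in the nucleus. All mice in all groups carried the Eu-MYC transgene, in which the immunoglobulin heavy chain enhancer drives MYC in B-lineage cells and from which B-lineage lymphomas can arise. In 2 groups, 8 females and 6 males were housed under 12 hours of light and 12 hours of dark (12:12 lighting). The other 8 females and 4 males had 8 weeks of chronic jet lag lighting. The titles number the animals within each sex and lighting. The shift schedule, age, health, hour of sampling and feeding before sampling were not given with the samples, and no group without the transgene was analysed here.

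In the fed liver glucose enters through the transporter encoded by Slc2a2, is phosphorylated by glucokinase, and passes down glycolysis to pyruvate kinase. In fasting the liver makes glucose from lactate, amino acids and glycerol, under glucagon and cAMP signalling that insulin opposes, and the kinase encoded by Pdk4 then holds pyruvate back from oxidation. Transcripts of these genes follow feeding, hormones and the hepatic circadian clock, so they also vary with the hour in normal liver.

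Each library held 45364552 to 50242014 counts, so a count of 0 would allow up to 0.0661 CPM (a count scaled to its library's total), and all 9 genes were above that limit in every library. Alb, the albumin transcript that marks hepatocytes, took 10.005% to 22.12% of each library. The B cell receptor gene Cd79a was at 14.5 to 144 CPM in 8 libraries and at 1.28 to 2.95 CPM in the other 18. The 8 were females 6 and 7 under 12:12 lighting, females 2, 5 and 6 under jet lag, males 3 and 5 under 12:12 lighting and male 8 under jet lag. The lighting and sex comparisons were also made without these 8. In whole liver RNA, fewer cells of a type and less RNA per cell cannot be told apart.

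Per kilobase of exon, Fbp1 and Pck1 were the most abundant of the 9, with mean levels over the 26 libraries of 632 and 594 CPM per kb. Fbp1 encodes fructose bisphosphatase, and Pck1 encodes the cytosolic phosphoenolpyruvate carboxykinase that begins the path from oxaloacetate to glucose. The next were Gckr with 78.5, Pklr with 72.3, Slc2a2 with 48.85 and G6pc with 28.0 CPM per kb. Pfkfb1 followed with 12.0, Pfkfb3 with 1.87 and Pdk4 with 1.45 CPM per kb. Library ranges did not overlap between Pck1 (120.2 to 1235 CPM per kb) and Gckr (47.9 to 114.8), nor between Pfkfb1 (6.86 to 28.3) and Pfkfb3 (0.247 to 5.88). All other neighbours in this order overlapped. By the SD of log2 CPM over the 26 libraries, the widest spreads were those of Pdk4 (1.29, from 0.406 to 35.5 CPM), G6pc (1.08, from 9.10 to 195.4 CPM) and Pfkfb3 (1.06, from 1.36 to 32.5 CPM).

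The start regions of 4 of the genes are printed because G6pc and Pdk4 varied together, Pck1 shares a rare motif with G6pc, and Pklr was the member with the largest difference between libraries with high and low Cd79a. Each is the 250 bases before a RefSeq gene start (GRCm38.p6), and capitals mark matches, on either strand, to TTACGTNA (cAMP response element type), CAAAACA (a FOXO type element), CACGGG (part of the carbohydrate response element) and AGGTCA (a nuclear receptor element). None of these 4 patterns overlaps another in the windows shown.
G6pc, chr11:101367466-101367715, plus strand: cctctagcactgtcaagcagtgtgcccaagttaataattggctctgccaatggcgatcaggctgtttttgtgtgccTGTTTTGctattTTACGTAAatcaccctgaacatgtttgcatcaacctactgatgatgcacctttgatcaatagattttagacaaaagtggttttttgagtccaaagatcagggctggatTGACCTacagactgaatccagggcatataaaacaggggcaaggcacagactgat
Pck1, chr2:173152823-173153072, plus strand: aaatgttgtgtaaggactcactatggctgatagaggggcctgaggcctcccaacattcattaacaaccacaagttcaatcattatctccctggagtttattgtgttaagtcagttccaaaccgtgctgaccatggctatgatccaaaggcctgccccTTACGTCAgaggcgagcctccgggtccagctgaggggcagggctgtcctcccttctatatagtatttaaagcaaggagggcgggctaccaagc
Pklr, chr3:89136373-89136622, plus strand, the inner of its 2 listed starts: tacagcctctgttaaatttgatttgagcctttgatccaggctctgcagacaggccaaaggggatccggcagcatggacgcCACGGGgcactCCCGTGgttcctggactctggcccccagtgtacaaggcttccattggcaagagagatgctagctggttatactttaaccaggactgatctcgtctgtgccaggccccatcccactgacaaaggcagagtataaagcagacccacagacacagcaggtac
Pdk4, chr6:5496279-5496528, minus strand: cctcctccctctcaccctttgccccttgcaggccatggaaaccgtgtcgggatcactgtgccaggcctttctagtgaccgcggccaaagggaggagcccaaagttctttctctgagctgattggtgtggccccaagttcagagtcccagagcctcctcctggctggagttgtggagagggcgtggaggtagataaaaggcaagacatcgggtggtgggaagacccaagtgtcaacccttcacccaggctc
TTACGTNA was found in 0.788% of 32851 such windows of all genes, and among the 9 genes in G6pc (first base 162 before the start) and Pck1 (93 before). CAAAACA was in 5.56% of windows, and in those of G6pc and Gckr. CACGGG was in 8.46% of windows, and in Pklr it appeared once on each strand, its first bases 170 and 159 before the start, while Pfkfb3 had 1 match. AGGTCA was in 14.02% of windows, and in those of G6pc, Slc2a2, Pfkfb1 and the outer start of Pklr. These shares are per window, while Pfkfb1 has 4 windows and Pfkfb3 and Pklr have 2 each, so shares and genes cannot be compared directly. The matches are a description with no test. The Pdk4 window printed held none of the 4 patterns, which says only that these letters are not in it.

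The study asked how jet lag lighting changes liver expression. Over both sexes no member passed the test, where 132 of 16892 genes did (0.781%), 56.8% of them higher. It was an edgeR quasi-likelihood F test on counts, additive for sex, of 12 jet lag against 14 libraries under 12:12 lighting. The threshold was an adjusted p of 0.05 by Benjamini-Hochberg. With scaling to hepatocyte markers 186 genes passed, 83.9% of them higher. At an unadjusted p under 0.05 the reported fit had 3 members, G6pc, Pfkfb3 and Pdk4, against 8.01% of all genes. Without the 8 libraries of high Cd79a there were 6, these 3 with Slc2a2, Gckr and Pklr, against 13.3% of 16431 genes, and 0 passed the adjusted threshold. DESeq2 with the same design called 2 of the 9, G6pc and Pdk4, against 1.66% of its genes, and limma-voom called 0, against 0.669%. The median log2 fold change of jet lag over 12:12 lighting was 0.49 for the 4 fasted-type and -0.27 for the 5 fed-type genes, beside 0.02 for all genes tested. In each set 2 genes had a positive value.

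**Figure D1:**
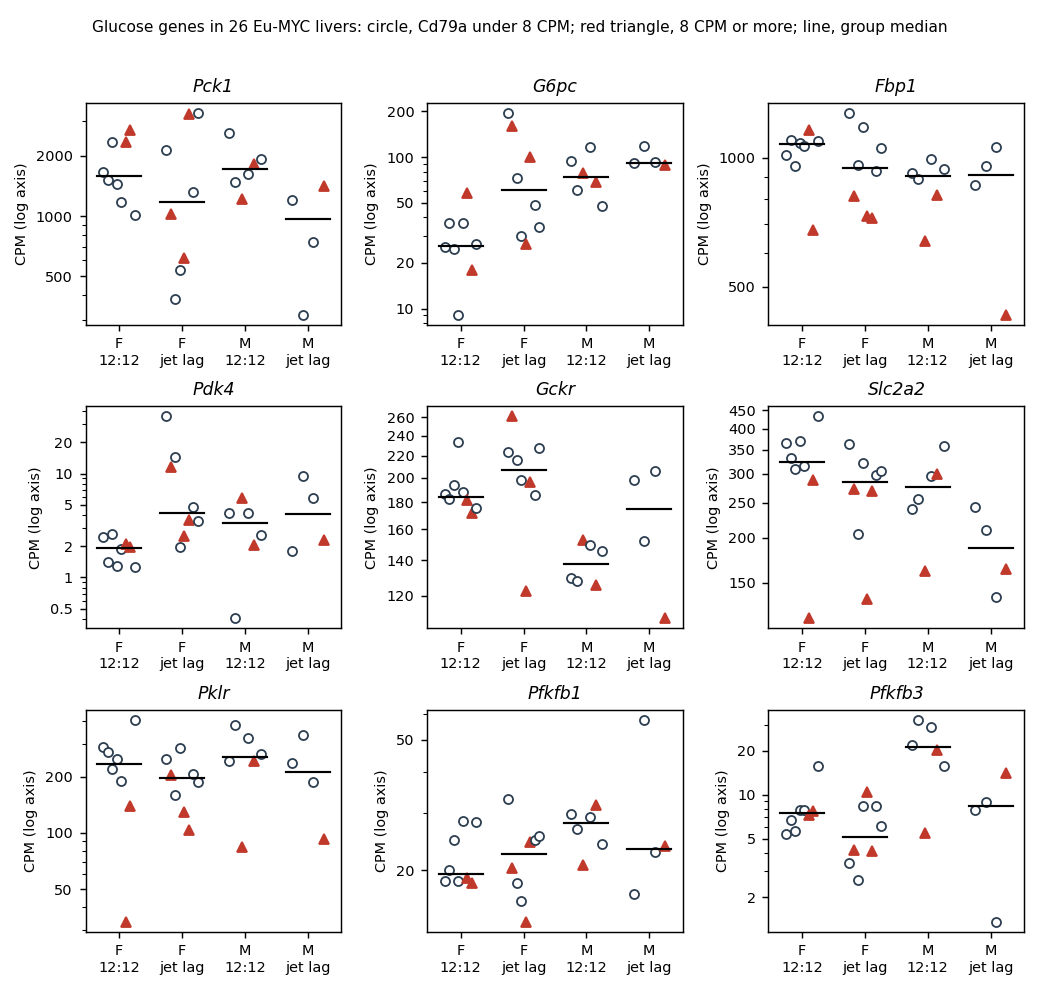
CPM of each member (log axis) in the 26 libraries by sex and lighting, 1 symbol per library; red triangles are libraries with Cd79a of 8 CPM or more and lines are group medians. Pdk4 reached 35.5, 14.6 and 11.5 CPM in 3 female jet lag libraries, and the red triangles lie low for Pklr and Fbp1.

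Pdk4, whose kinase inactivates pyruvate dehydrogenase, had the largest fold change. Under 12:12 lighting its lowest, median and highest levels were 1.25, 1.93 and 2.60 CPM in females and 0.406, 3.33 and 5.78 CPM in males. Under jet lag they were 1.96, 4.15 and 35.5 CPM in females, and the 4 males had 1.80, 9.42, 5.76 and 2.31 CPM. Female jet lag libraries 1, 3 and 2, with 35.5, 14.6 and 11.5 CPM, were high, while the lowest female jet lag library lay inside the range of females under 12:12 lighting. In 10 of the 12 jet lag animals Pdk4 exceeded the 12:12 median for that sex. The log2 fold change over both sexes was 1.75 (SE 0.48, edgeR adjusted p = 0.0959), and DESeq2 gave 1.76 with an adjusted p of 0.00327. In the authors' deposited table, whose sign runs from jet lag to 12:12 lighting, the log2 fold change of Pdk4 was -1.69 with an adjusted p of 0.00693. Of the 26 edgeR fits that left out 1 library, 1 passed, without male jet lag library 8 (adjusted p = 0.0388). The largest edgeR adjusted p of these fits was 0.210, without male jet lag library 6. Without female jet lag library 1 the log2 fold change was 1.29. Without the 8 libraries of high Cd79a it was 2.05 (SE 0.58, adjusted p = 0.0783).

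Clock transcripts also differed between the jet lag libraries. Arntl, which encodes the activator arm partner of CLOCK in the circadian clock, stood at 10.7, 17.8 and 34.5 CPM in female jet lag libraries 1, 2 and 3, and at 23.5 CPM in male jet lag library 6, whose Pdk4 was 9.42 CPM. Arntl in females under 12:12 lighting ran from 0.504 to 6.09 CPM. Dbp, an output gene of the clock, was at 56.5, 25.7 and 2.60 CPM in those 3 female libraries and at 64.5 to 219 CPM in females under 12:12 lighting. Male library 3 under 12:12 lighting also had Arntl at 25.3 CPM and the highest Pdk4 of its group, 5.78 CPM. Other libraries had raised Arntl without high Pdk4: male jet lag library 8 had Arntl at 17.7 and Pdk4 at 2.31 CPM, and female jet lag libraries 5 and 6 had Arntl at 8.04 and 9.08 CPM and Pdk4 at 2.51 and 3.54 CPM. These 3 libraries have high Cd79a, as do female jet lag library 2 and male library 3 under 12:12 lighting. Under 12:12 lighting the highest Arntl of each sex was in a library of high Cd79a. The part of clock phase or sampling hour in the Pdk4 levels was not tested.

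G6pc encodes the catalytic subunit of the phosphatase that frees glucose for export, the last step of glucose production. Its lowest, median and highest levels under 12:12 lighting were 9.10, 26.1 and 57.7 CPM in females and 47.4, 73.3 and 117.3 CPM in males. Under jet lag they were 26.8, 60.4 and 195.4 CPM in females, and the 4 males had 90.95, 118.5, 92.4 and 88.5 CPM. All 12 jet lag animals exceeded the 12:12 median for their sex, with overlap of the ranges in both sexes. The log2 fold change was 1.06 (SE 0.32, edgeR adjusted p = 0.159), and 1.07 with an adjusted p of 0.0278 in DESeq2. Without the 8 libraries of high Cd79a it was 1.02 (SE 0.37, edgeR adjusted p = 0.209). In the authors' deposited table its log2 fold change from jet lag to 12:12 lighting was -0.76 with an adjusted p of 0.464.

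Neither of the 2 other enzymes of glucose production passed the test, and both had negative fold changes. Pck1 had medians of 1589 CPM under 12:12 lighting and 1169 CPM under jet lag in females, with ranges of 1007 to 2689 and 385.8 to 3286 CPM. In males it ran from 1219 to 2620 CPM under 12:12 lighting and the 4 jet lag males had 1201, 319.8, 739.6 and 1412 CPM. Its SD of log2 CPM was 1.19 in jet lag females and 0.46 in females under 12:12 lighting, a difference in spread that was not tested. The log2 fold change of Pck1 was -0.49 (SE 0.31, adjusted p = 0.831), with 9 of the 12 jet lag animals under the 12:12 median for their sex, and -0.55 (SE 0.40, adjusted p = 0.632) without the 8 libraries of high Cd79a. Fbp1 differed by -0.09 (SE 0.15, adjusted p = 0.999), with medians of 1073 and 946.7 CPM in females and 906.6 and 909.3 CPM in males under 12:12 lighting and jet lag. Its value was -0.0014 (SE 0.080, adjusted p = 0.998) without the 8 libraries of high Cd79a.

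Among fed-type genes the largest lighting difference was in Pfkfb3, an isoform of the bifunctional enzyme that sets the allosteric activator of phosphofructokinase. Its lowest, median and highest levels were 5.36, 7.48 and 15.7 CPM in females under 12:12 lighting and 2.62, 5.16 and 10.45 CPM under jet lag. In males under 12:12 lighting they were 5.49, 21.1 and 32.5 CPM, and the jet lag males had 7.93, 8.90, 1.36 and 14.15 CPM. Of the 6 males under 12:12 lighting 5 lay above all 4 jet lag males, and library 3 had 5.49 CPM. The log2 fold change over both sexes was -0.82 (SE 0.31, edgeR adjusted p = 0.356; DESeq2 adjusted p = 0.164), and -1.11 (SE 0.37, adjusted p = 0.154) without the 8 libraries of high Cd79a. In the authors' deposited table the log2 fold change of Pfkfb3 from jet lag to 12:12 lighting was 1.10 with an adjusted p of 0.0767. Pfkfb1, the liver isoform, differed by 0.06 (SE 0.17, adjusted p = 0.999), a sign that turned with limma-voom, with the replicate number as a block, and in 2 of the 26 fits that left out 1 library. It was 0.08 (SE 0.20, adjusted p = 0.928) without the 8 libraries of high Cd79a.

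Slc2a2, the main glucose transporter of hepatocytes, had medians of 323.9 CPM under 12:12 lighting and 285.3 CPM under jet lag in females, with ranges of 119.7 to 433.0 and 135.6 to 362.8 CPM. In males the median under 12:12 lighting was 276.1 CPM (161.4 to 359.4 CPM), and the jet lag males had 243.6, 209.7, 136.8 and 164.2 CPM. In 11 of the 12 jet lag animals it was under the 12:12 median for that sex, and its log2 fold change was -0.36 (SE 0.18, adjusted p = 0.633). Without the 8 libraries of high Cd79a the value was -0.41 (SE 0.11, adjusted p = 0.0557), a fit in which 2.32% of 16431 genes were called. Gckr, which encodes the protein that holds glucokinase inactive in the nucleus, differed by 0.16 (SE 0.12, adjusted p = 0.926) and exceeded that median in 10 of the 12. Pklr, the liver pyruvate kinase, differed by -0.27 (SE 0.28, adjusted p = 0.999), with medians of 235.1 and 196.2 CPM in females and 253.9 and 212.8 CPM in males. In the 18 libraries of low Cd79a the values were 0.20 for Gckr (SE 0.09, adjusted p = 0.304) and -0.33 for Pklr (SE 0.14, adjusted p = 0.309).

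**Figure D2:**
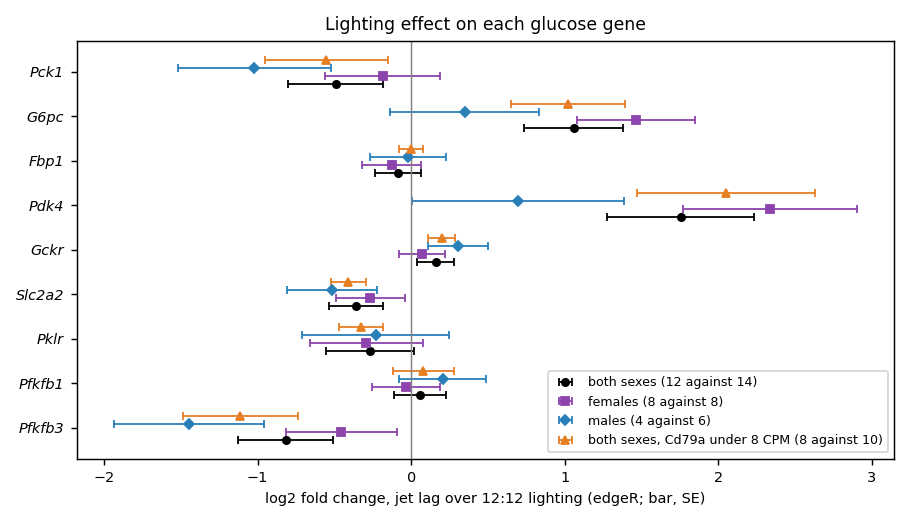
Log2 fold change of jet lag over 12:12 lighting for each member (points, edgeR) with its SE (bars), over both sexes, within each sex, and over both sexes without the libraries of Cd79a at 8 CPM or more. Pdk4, G6pc and Gckr lie to the right in all 4 fits. Pfkfb3, Slc2a2, Pck1, Pklr and, only slightly, Fbp1 lie to the left in all 4, and Pfkfb1 changes side. No point passed an adjusted p of 0.05.

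Within females the log2 fold changes were 2.34 for Pdk4 (SE 0.57, edgeR adjusted p = 0.180) and 1.46 for G6pc (SE 0.39, edgeR adjusted p = 0.244). edgeR called 0 members and 0 of 16892 genes in females (0%), with 4.57% at an unadjusted p under 0.05, where the members were again Pdk4 and G6pc. limma-voom also called 0 genes (0%), and DESeq2 called 55 (0.33%), among them Pdk4 (adjusted p = 0.00381) and G6pc (adjusted p = 0.0213). Within males edgeR called 0 members and 2 genes (0.0118%), Slc16a12, which encodes a monocarboxylate transporter family member, and Nampt, which encodes an enzyme of NAD synthesis, neither of them on the pathway lists. The largest differences of members in males were -1.45 for Pfkfb3 (SE 0.49, adjusted p = 0.325), the 1 member at an unadjusted p under 0.05 (9.65% of all genes), and -1.02 for Pck1 (SE 0.50, adjusted p = 0.518). In males 0 members were among the 89 genes (0.534%) that passed in DESeq2 and the 2 (0.0118%) in limma-voom. For Pfkfb3 in males the value without the 8 libraries of high Cd79a was -2.06 (SE 0.54, adjusted p = 0.0720). The difference in lighting response between the sexes was tested as an interaction, female minus male. It was 1.64 for Pdk4 (SE 0.90), 1.11 for G6pc (SE 0.62), 0.99 for Pfkfb3 (SE 0.60) and 0.84 for Pck1 (SE 0.62), each with an adjusted p of 0.814. For Pdk4 it was 0.98 when female jet lag library 1 was left out and 2.26 when male jet lag library 6 was, and for Pfkfb3 0.66 when male jet lag library 7 was left out. edgeR, DESeq2 and limma-voom called 0 of 9 members and 0 genes (0%) for the interaction, and edgeR had 5.34% of genes and 0 members at an unadjusted p under 0.05.

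Other genes of the same pathways were read from lists of 21 glycolysis enzymes, 13 tested gluconeogenesis enzymes, 15 genes of the bifunctional enzyme and pyruvate dehydrogenase control, 7 tested glucose transport and fructose genes, 15 fed-state and 17 fasting response genes and 17 regulators, members included. Over both sexes edgeR called 0 genes of each list for lighting, and the lists held 1, 2, 3, 1, 1, 2 and 4 genes at an unadjusted p under 0.05. Their median log2 fold changes lay between -0.10 and 0.16, beside 0.02 for all genes. Without the 8 libraries of high Cd79a 2 of the 104 list genes tested fell and none rose, 1.92% beside 2.32% of all genes: Slc37a4, the transporter that brings glucose phosphate to the phosphatase of G6pc, by 0.42 (SE 0.10, adjusted p = 0.0241), and Slc2a9, a urate and hexose transporter, by 0.42 (SE 0.09, adjusted p = 0.0188). Both were singled out after their values were seen.

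Males and females differed in 2 members. Over both lightings G6pc was higher in males, with medians of 89.7 CPM in 10 males and 35.4 CPM in 16 females, and Pfkfb3 was higher, with medians of 14.9 and 7.00 CPM. The log2 fold change of male over female was 1.07 for G6pc (SE 0.33, edgeR adjusted p = 0.0373) and 1.11 for Pfkfb3 (SE 0.31, edgeR adjusted p = 0.0217). The comparison called 1542 of 16892 genes (9.13%), 48.8% of them higher in males. With scaling to hepatocyte markers it called 1237 genes, 34.8% of them higher in males. All 10 males lay above the female median for G6pc, and 8 of 10 for Pfkfb3. Without the 8 libraries of high Cd79a the values were 1.23 (SE 0.37, adjusted p = 0.0289) and 1.11 (SE 0.37, adjusted p = 0.0415), where 19.4% of genes were called. The call of G6pc was lost in 11 of the 26 fits that left out 1 library, up to an adjusted p of 0.0775 without male library 4 under 12:12 lighting, and that of Pfkfb3 in limma-voom (adjusted p = 0.0508), where 8.3% of genes passed. Pfkfb1 differed by 0.52 (SE 0.17, adjusted p = 0.0587), past the threshold in DESeq2 (adjusted p = 0.0371), which called 11.9% of its genes. Gckr differed by -0.23 (SE 0.12, adjusted p = 0.271). With counts scaled to hepatocyte markers, where 7.32% of genes were called, Gckr passed (-0.30, SE 0.09, adjusted p = 0.0460) and G6pc did not (adjusted p = 0.0637). None of the remaining members passed in the reported fit, and the largest adjusted p among them was 0.859, that of Fbp1. In libraries of low Cd79a under 12:12 lighting, the clock output gene Dbp ran from 134.0 to 219.3 CPM in females and 55.0 to 124.0 CPM in males. Over all libraries under 12:12 lighting the Dbp ranges overlapped, at 64.5 to 219.3 and 3.67 to 124.0 CPM. Arntl ranges under 12:12 lighting overlapped in libraries of low Cd79a too, at 0.5044 to 1.496 CPM in females and 0.7715 to 1.583 CPM in males. The part of clock phase or sampling hour in the differences between the sexes was not tested.

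The members were next compared by Cd79a. Libraries with Cd79a at or above 8 CPM are no group of the study but were set apart by 1 measured gene, so the p-values below compare libraries sorted by that gene, with sex and lighting in the model. In these 8 against the other 18 libraries, 5 members fell and none rose, where 42.7% of 16892 genes passed the threshold, 23.1% higher and 19.6% lower. Of the 5, Pklr, Slc2a2, Gckr and Pfkfb1 are fed-type and Fbp1 is fasted-type. The median log2 fold change was -0.43 for fed-type and -0.13 for fasted-type members, beside -0.02 for all genes.

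Pklr had 33.5, 116.8 and 241.5 CPM as the lowest, median and highest of the 8 libraries, and 159.4, 249.97 and 404.0 CPM in the other 18. All 8 lay below the median of the remaining libraries of their sex, and the ranges overlapped. The log2 fold change was -1.16 (SE 0.23, edgeR adjusted p = 2.43e-04), -1.13 in females alone (adjusted p = 0.0108) and -1.24 in males alone (adjusted p = 0.0305). Fbp1 had 430.3, 725.9 and 1162 CPM against 861.7, 1003 and 1270 CPM, with 7 of 8 below the median of their sex, and fell by 0.62 (SE 0.11, adjusted p = 7.09e-05). Slc2a2 had 119.7, 216.8 and 299.2 CPM against 136.8, 307.6 and 433.0 CPM, and fell by 0.60 (SE 0.16, adjusted p = 0.00287), again with 7 of 8 below. In males alone Slc2a2 missed the threshold (-0.46, adjusted p = 0.184).

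The falls in Gckr and Pfkfb1 were smaller. Gckr had a median of 162.0 CPM in the 8 and 187.3 CPM in the other 18 libraries and fell by 0.35 (SE 0.11, adjusted p = 0.0135). Of the 8, 5 lay below the median of their sex, and the call was lost without male jet lag library 8 (adjusted p = 0.0569). Pfkfb1 had medians of 20.6 and 24.75 CPM and fell by 0.43 (SE 0.17, adjusted p = 0.0430), a call kept in 12 of the 26 fits that left out 1 library. When counts were scaled to hepatocyte markers, which moved the median of all genes from -0.02 to 0.15, Pklr, Fbp1 and Slc2a2 stayed past the threshold at -0.98, -0.46 and -0.43, and Gckr and Pfkfb1 did not (adjusted p = 0.101 and 0.236). Under that scaling 38.1% of genes passed, with 80.1% of them on the higher side, against 54.0% in the reported fit.

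The 4 other members did not pass. G6pc differed by 0.12 (SE 0.34, adjusted p = 0.810), Pck1 by 0.13 (SE 0.32, adjusted p = 0.780), Pfkfb3 by -0.17 (SE 0.33, adjusted p = 0.698) and Pdk4 by -0.37 (SE 0.49, adjusted p = 0.579). Leaving out 1 library moved Pfkfb3 between -0.38 (without female jet lag library 5) and -0.0023 (without male library 3 under 12:12 lighting), and Pdk4 between -0.75 (without the same male library) and -0.034 (without female jet lag library 1). Female library 6 under 12:12 lighting, with Cd79a at 105 CPM, had the lowest Pklr and Slc2a2 of all libraries (33.5 and 119.7 CPM) while its Fbp1, 1162 CPM, and its G6pc, 57.7 CPM, were the highest of its group.

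**Figure D3:**
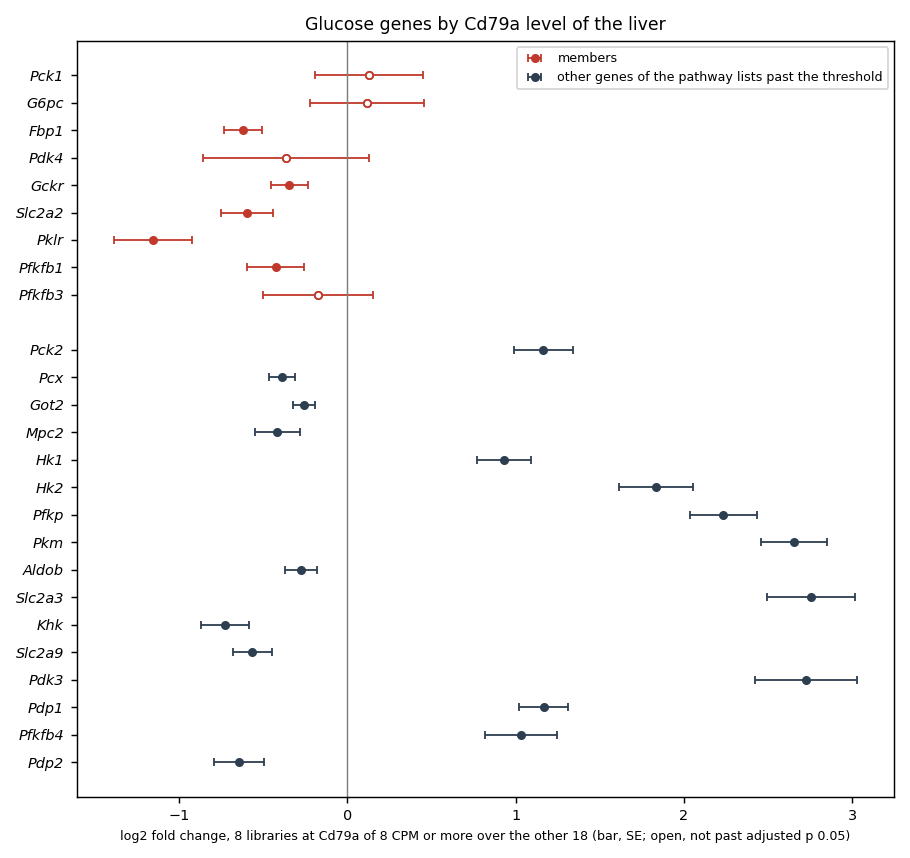
Log2 fold change of the 8 libraries with Cd79a at or above 8 CPM over the other 18, with its SE (bars). Red symbols are the 9 members, and open ones did not pass an adjusted p of 0.05 (edgeR). Dark symbols are 16 other genes of the pathway lists, all chosen from those that passed. None of the 16 is from the fed-state, fasting or regulator lists. Of the 103 list genes tested 56 passed. Pklr, Fbp1 and Slc2a2 lie to the left, and Pkm, Pfkp, Hk2, Slc2a3 and Pdk3 lie at 1.83 or more.

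Markers of other cell types were counted in the same way, beside 42.7% of all genes called, 23.1% higher and 19.6% lower. Leaving out Cd79a, which set the libraries apart, the summed level of 11 B-lineage markers was 37.4 to 339.2 CPM in the 8 libraries and 7.67 to 18.3 CPM in the rest, and all 9 markers tested rose. All 12 proliferation genes rose, with sums of 86.7 to 985 CPM against 26.3 to 51.8 CPM. Neutrophil markers summed to 6.58 to 412 against 1.13 to 6.89 CPM (7 of 7 tested rose), and macrophage and Kupffer cell markers to 447 to 2194 against 229.9 to 498 CPM (7 of 7 tested rose). Of 8 erythroid markers 6 rose, with sums of 1045 to 11770 against 809.2 to 4652 CPM, and 3 of 7 stellate cell and fibroblast markers and 3 of 7 endothelial markers rose. In each of the last 2 sets 4 of 7 had a positive value, with median log2 fold changes of 0.43 and 0.09, so these counts show no clear shift. Of 9 T and NK cell markers none rose and 2 fell, with sums of 1.97 to 6.03 against 1.98 to 6.58 CPM, and 0 of 6 cholangiocyte markers passed. Of 15 hepatocyte markers 1 rose, 3 fell and 11 did not pass, and their sum was 196500 to 289000 against 167800 to 223400 CPM. Alb took 12.89% to 22.12% in the 8 libraries and 10.005% to 14.41% in the rest. The part of these cells in the members' differences was not tested.

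Of the 103 pathway list genes tested, each counted once, 17 rose and 39 fell in the 8 libraries, which is 54.4% beside 42.7% of all genes, and with scaling to hepatocyte markers 23 rose and 19 fell, 40.8% beside 38.1%. Of 21 glycolysis enzymes 7 rose and 3 fell, beside 23.1% of all genes higher and 19.6% lower, with a median log2 fold change of 0.06. Pkm, the pyruvate kinase of most tissues other than liver, rose by 2.65 (SE 0.20), from a mean of 11.1 to 79.9 CPM. Pfkp, the platelet phosphofructokinase, rose by 2.23, and the hexokinases Hk2 and Hk1 by 1.83 and 0.93. Among 13 gluconeogenesis enzymes 2 rose and 4 fell, and in both lists the share called was near that of all genes. Pck2, the mitochondrial counterpart of Pck1, rose by 1.16 (SE 0.17), Pcx, the pyruvate carboxylase, fell by 0.39, Mpc2, a subunit of the mitochondrial pyruvate carrier, fell by 0.42, and Got2, an aspartate aminotransferase, by 0.26. With counts scaled to hepatocyte markers 10 of the glycolysis enzymes rose and 1 fell, 4 of the gluconeogenesis enzymes rose and 2 fell, and of the genes named Mpc2 and Got2 missed the threshold (adjusted p = 0.112 and 0.345).

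Of 15 genes of bifunctional enzyme and pyruvate dehydrogenase control 3 rose and 8 fell, where 23.1% of all genes rose and 19.6% fell. Pdk3, a kinase of pyruvate dehydrogenase like Pdk4, rose by 2.73 (SE 0.30), the phosphatase gene Pdp1 by 1.17 and the bifunctional enzyme gene Pfkfb4 by 1.03, and the phosphatase gene Pdp2 fell by 0.64. Of 7 transport and fructose genes 1 rose and 5 fell: Slc2a3, a high affinity glucose transporter of neurons and leukocytes, rose by 2.75 (SE 0.26), from 0.329 to 2.41 CPM, while Khk, the fructose kinase, fell by 0.73 and the transporters Slc2a9 and Slc2a5 by 0.56 and 0.96. With counts scaled to hepatocyte markers 3 rose and 1 fell in the first of these lists, and 2 rose and 4 fell in the second, with the genes named here past the threshold on the same side.

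Genes of the fed and fasting responses were counted in the same way, beside the 42.7% of all genes called. Of 15 fed-state genes 7 fell, among them Me1, Acly and Scd1 of fatty acid synthesis by 1.62, 0.85 and 1.24, and 1 rose, G6pdx of the pentose phosphate pathway, by 1.14. Of 17 fasting response genes 6 fell, among them Creb3l3, Ehhadh and Cpt1a by 0.71, 0.76 and 0.51, and 2 rose. Of 17 regulators 7 fell and 1 rose. The share called in both of these lists, 8 of 17, was near that of all genes. Cebpa and Ppara, transcription factors of hepatocytes, fell by 0.84 and 0.85, the glucagon receptor gene Gcgr by 0.66 and Rxra by 0.46. Scaled to hepatocyte markers the falls were 6, 3 and 3 in these lists and the rises 1, 2 and 1, and Cpt1a and Rxra missed the threshold (adjusted p = 0.235 and 0.161).

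**Figure D4:**
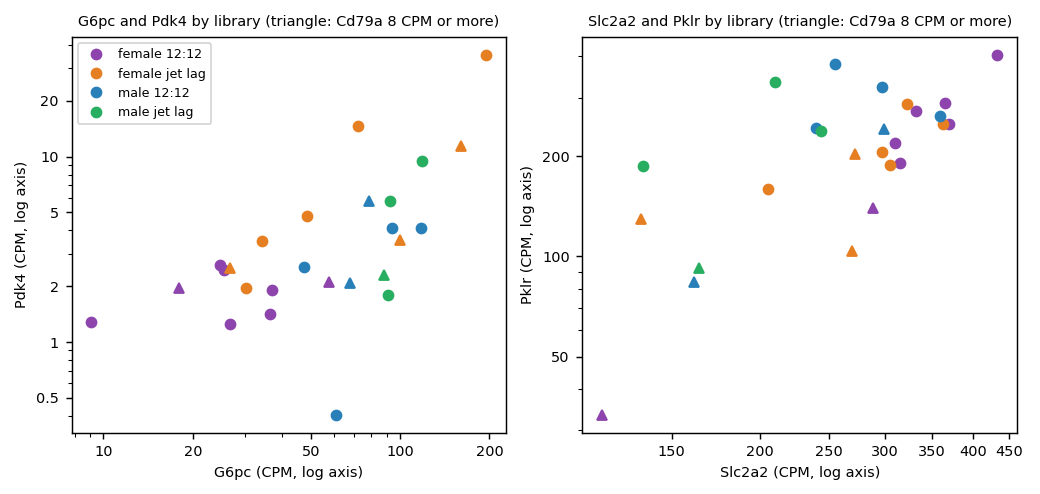
CPM of Pdk4 against G6pc (left) and of Pklr against Slc2a2 (right), log axes, 1 symbol per library, coloured by group; triangles are libraries with Cd79a of 8 CPM or more. Libraries high in G6pc tend to be high in Pdk4, and the low end of Pklr and Slc2a2 holds mostly triangles.

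How members varied between animals of the same group was read from log2 CPM as deviations from the group mean, over 26 libraries and 36 pairs of members (permutation within groups, two-sided, adjusted over the 36). At an adjusted p under 0.05, 3 pairs passed by Pearson's r, and 3 others by Spearman's rho only. G6pc and Pdk4, both fasted-type, gave Pearson's r of 0.62 (permutation p = 7.6e-04, adjusted p = 0.0137) and Spearman's rho of 0.62 (permutation p = 0.00163, adjusted p = 0.0196), and r was 0.65 without the 2 farthest libraries. Pklr and Slc2a2, both fed-type, gave r of 0.86 (permutation p = 4e-05, adjusted p = 0.00144) and rho of 0.75 (permutation p = 4e-05, adjusted p = 0.00144), and r of 0.69 without the 2 farthest. Gckr and Fbp1 gave r of 0.71 (permutation p = 0.00145, adjusted p = 0.0174) and rho of 0.51 (permutation p = 0.0211, adjusted p = 0.109), and r of 0.54 without the 2 farthest.

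Within the 18 libraries under 8 CPM of Cd79a none of the 36 pairs passed. There r was 0.69 for G6pc and Pdk4 (permutation p = 0.00189, adjusted p = 0.0680), 0.54 for Pklr and Slc2a2 (permutation p = 0.0398, adjusted p = 0.307) and 0.45 for Gckr and Fbp1 (permutation p = 0.261, adjusted p = 0.770). Pfkfb3 and Pdk4 ran in opposite directions, with r of -0.56 (permutation p = 0.0123, adjusted p = 0.0674) and rho of -0.58 (permutation p = 0.00608, adjusted p = 0.0438) over 26 libraries, and r of -0.50 (permutation p = 0.0770, adjusted p = 0.346) over the 18. The other pairs that passed by rho join the fasted-type Fbp1 to fed-type genes. Fbp1 and Pklr gave r of 0.58 (permutation p = 0.00779, adjusted p = 0.0561) and rho of 0.65 (permutation p = 3e-04, adjusted p = 0.0054), and r of 0.25 (permutation p = 0.427, adjusted p = 0.788) over the 18. Fbp1 and Slc2a2 gave r of 0.44 (permutation p = 0.0199, adjusted p = 0.0749) and rho of 0.56 (permutation p = 0.00498, adjusted p = 0.0438), and r of 0.08 (permutation p = 0.804, adjusted p = 0.955) over the 18.

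The genes most like each member in these deviations, among 8990 genes with a mean of at least 5 CPM, are given as a description of the 26 libraries, which include those with high Cd79a. For Pklr they were Dak (r = 0.94), Pcsk6 (0.94) and Fads1 (0.93), for Slc2a2 Cttn (0.92), Slc2a9 (0.92) and Cul4a (0.91), and for Fbp1 Marc2 (0.96), Car5a (0.94) and Haao (0.94). For Gckr they were LOC102641989, Rgl3 and Llgl2 (each 0.91), and for Pfkfb1 Thrsp (0.82), Masp2 (0.78) and Nmrk1 (0.77). For the members that did not pass by Cd79a they were Rusc2 (0.67), A430046D13Rik (0.65) and Gpr182 (0.64) for G6pc, Mknk2 (0.79), Map2k6 (0.77) and Mast3 (0.75) for Pck1, Abhd13 (0.86), Jmjd4 (0.82) and Tshz1 (0.82) for Pfkfb3, and Ccng2 (0.78), Gm30081 (0.73) and Arl4a (0.73) for Pdk4.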

How the data were processed

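Liver RNA was extracted on RNeasy columns and sequenced as DNBSEQ stranded mRNA libraries, per the labels' protocols. STAR and DESeq2, without versions, and the build mm10 are named in the submitters' processing notes, and no source used here gives a counting tool, gene annotation or strand setting, so genes on opposite strands that overlap may share reads. The authors deposited a table of expected counts per gene name, not normalized, a table of normalized signal, and a table of their comparison of 12:12 lighting over jet lag, holding the mean signal, the log2 fold change and its error, a score (test statistic) and p-values. Of all cells with deposited counts, 45.82% held 0.015, read as 0, and 1.44% were not whole (tolerance 1e-06) and were rounded. The normalized signal equalled the count times 1 constant per library in 99.97% of cells (relative tolerance 0.001) and was used only for that check.

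Library totals were 45364552 to 50242014 counts, and the limit that a count of 0 allows (3 counts) covers counting error only. The number of animals limits the precision, and p-values measure the spread between the animals' libraries. Pairs of libraries within a group differed far beyond sampling noise (smallest chi-square over its degrees of freedom 31.5), so none was counted as a duplicate. Genes were kept by filterByExpr of edgeR 4.0.16 with a count minimum of 10, which left 16892, all 9 members among them, and were scaled by TMM. Quasi-likelihood F tests were used (estimateDisp, robust glmQLFit), tested beforehand on simulated counts, with Benjamini-Hochberg adjustment over all genes and a threshold of 0.05. SE is the size of the log2 fold change over the square root of F. Adjusted p-values in all parts are from edgeR unless DESeq2 1.42.0 or limma 3.58.1 is named. Models were additive (sex and lighting, or these and the Cd79a class) or of the 4 group means, over all 26 libraries. CPM is the count scaled to the column sum, and relations used log2 CPM with a prior count of 2 and 100000 permutations within groups. Exon lengths are unions of exons in the basic GENCODE set on GRCm38, the same assembly as mm10. All 9 genes matched a RefSeq GRCm38.p6 start window.

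Members, lists and tests were chosen with earlier results of these data known. All 9 members are named, with up to 4 non-members of smallest p past the threshold from each pathway list for lighting over both sexes and for the Cd79a class, and the 3 genes most like each member. Of 218 list entries 216 were found under the name listed, and Tkfc and Adgre1 were not. Synonyms were not searched, so a gene held in the counts under another name was left out of its list. Alternatives were DESeq2, its size factors, scaling to hepatocyte markers, no filter, limma-voom, a replicate block, Cd79a as a covariate, a Cd79a limit of 20 CPM, single sexes, and leaving out each library or the 8 libraries of high Cd79a. Of these, 1 gene that this rule names is not reported here.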

Additional observations from a re-analysis of the deposited data

Results flagged for a closer look

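Of 36 sets of 1 member in 1 group, 7 held a library whose gap to its nearest neighbour was large for the group's range (Dixon's test at 95%). The chance rate of that test, about 1 in 20, holds for normal values. Here it was applied to CPM and the sets share animals, so the 7 cannot be weighed against that rate. In females under 12:12 lighting, library 4 had the highest Gckr at 233.5 CPM (others 171.3 to 194.2 CPM), and library 8 the highest Pfkfb3 at 15.73 CPM (others 5.36 to 7.84 CPM). In the same group 2 libraries with high Cd79a stood low: library 7 in Fbp1 at 676.5 CPM (others 955.2 to 1162 CPM) and library 6 in Slc2a2 at 119.7 CPM (others 289.1 to 433.0 CPM). Male jet lag library 6 was the highest of its group of 4 in both G6pc, at 118.5 CPM (others 88.5 to 92.4 CPM), and Pfkfb1, at 57.53 CPM (others 16.9 to 23.7 CPM), which was also the highest Pfkfb1 of all 26 libraries. Female jet lag library 1 was highest in Pdk4 at 35.46 CPM (others 1.96 to 14.6 CPM), and it also had the highest G6pc of all libraries, 195.4 CPM.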

How the results depend on the processing

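The number of members past the threshold stayed within 1.5 times of the reported one in 43 of 52 recomputed counts outside the fits that left out 1 library. Most of these 43 are counts for lighting or its interaction with sex that were 0 as reported and 0 again, so they say little about stability. The number became 2 with DESeq2 for lighting over both sexes and within females (reported 0), 1 without a filter and with limma-voom for sex (reported 2), and, for high Cd79a (reported 5), 3 with scaling to hepatocyte markers, 3 in females alone and 2 in males alone. Pairs of members numbered 0 in the 18 libraries of low Cd79a and 1 with hepatocyte scaling (reported 3). Leaving out 1 library gave 0 to 1 members for lighting (1 without male jet lag library 8), 0 to 0 in females, in males and for the interaction, 1 to 3 for sex and 3 to 5 for Cd79a (3 without male jet lag library 8). None of the values that changed sign belonged to a member past the threshold in the reported fit. For lighting they were Pfkfb1 over both sexes (-0.024 with limma-voom, -0.021 with the replicate block, -0.14 to 0.12 leaving out 1 library) and in females (0.069 with hepatocyte scaling, -0.13 to 0.051), Fbp1 in males (0.10 with the block, 0.038 without the libraries of high Cd79a, -0.25 to 0.22), Pklr in males (0.13 with the block, -0.60 to 0.035) and Pfkfb1 in males (-0.40 to 0.42). For the interaction they were Fbp1 (0.040 with hepatocyte scaling, -0.33 to 0.13), Pklr (0.10 with hepatocyte scaling, 0.18 with limma-voom, 0.14 with the Cd79a covariate, -0.32 to 0.32) and Pfkfb1 (-0.46 to 0.37). For sex they were Pdk4 (-0.036 with limma-voom) and Fbp1 (-0.16 to 0.028). For Cd79a they were Pfkfb3 (0.027 with hepatocyte scaling), G6pc (-0.20 at a limit of 20 CPM, -0.32 in males, -0.12 to 0.38) and Pck1 (-0.00035 in males, -0.14 to 0.32). Against Arntl, r of Fbp1 was 0.14 and of Pfkfb1 0.38 in the 18 libraries of low Cd79a. The cause was not tested in any of these cases. Genes called for lighting over both sexes (132) numbered 274 with DESeq2, 381 without the 8 libraries and 280 with the covariate. In females (0) they numbered 55, 13 and 28 in these, 16 with hepatocyte scaling, 11 with the block and 14 in females alone. In males (2) they numbered 89, 219 and 61, then 4, 13 and 0, and 0 with DESeq2 size factors. For sex (1542) they numbered 3188 without the 8 libraries and 2532 with the covariate, and for Cd79a (7205) 2221 in males alone. Libraries of the same number in both lightings had deviations correlated at -0.53 to 0.72 over the 2000 most variable genes. The highest value, for female 6, joins libraries of high Cd79a in both lightings. The correlations therefore cannot decide whether the libraries share more than a number. The block called 0 members and 119, 11, 13 and 0 genes over both sexes, in females, in males and for the interaction.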

Other observations

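After their values had been seen, the members were set against Arntl, the clock transcript that was high in the libraries with much Pdk4, in the same deviations from group means (9 relations, 26 libraries, permutation within groups, two-sided, adjusted over the 9). Slc2a2 gave r of -0.69 (permutation p = 7.1e-04, adjusted p = 0.00639) and rho of -0.68 (permutation p = 3.7e-04, adjusted p = 0.00333), and Pklr gave r of -0.63 (permutation p = 0.00216, adjusted p = 0.00972) and rho of -0.51 (permutation p = 0.00924, adjusted p = 0.0277). Both are fed-type. Because Arntl was picked for its level where Pdk4 was high, and G6pc and Pfkfb3 varied with Pdk4, these 3 are described with no test, with r of 0.47 for Pdk4, 0.41 for G6pc and -0.58 for Pfkfb3. The other 4 members did not pass by r or rho. Without the 2 libraries farthest in Arntl r was -0.72, -0.72, -0.58, 0.40 and 0.41 for Slc2a2, Pklr, Pfkfb3, Pdk4 and G6pc.

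Within the 18 libraries under 8 CPM of Cd79a neither Slc2a2 nor Pklr passed. There r was -0.61 for Slc2a2 (permutation p = 0.0443, adjusted p = 0.138) and rho -0.49 (permutation p = 0.0774, adjusted p = 0.232). For Pklr r was -0.17 (permutation p = 0.553, adjusted p = 0.711) and rho -0.16 (permutation p = 0.585, adjusted p = 0.658). In the same libraries r was 0.59 for Pdk4, 0.58 for G6pc and -0.45 for Pfkfb3, again as a description. The hour at which each liver was taken is not given in the sources used here.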
